A study of Mus musculus with 12 samples.

Results

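Macrophages that had received both IL4 and all-trans retinoic acid (RA) were compared with macrophages that had received neither. The macrophages had been grown from bone marrow with 10 ng/mL M-CSF for 7 days, and the donors were C57BL/6 males, wild-type. The cells compared here were 3 libraries with 20 ng/mL IL4 for 24 h, then washed and given 1 µM RA for 6 h (IL4 RA), and 3 libraries with control medium (labelled PBS) for 24 h, then DMSO for 6 h (naive vehicle). The 6 other libraries, 3 with RA alone (naive RA) and 3 with IL4 followed by DMSO (IL4 vehicle), were used to split the joint change into its parts. All 4 groups shared the M-CSF culture and the wash, DMSO was the vehicle control for RA, and whether IL4 was also present during the last 6 h and the ages of the mice are not given in the sources used here. Of the 13553 genes in the table, 12116 had a log2 CPM of at least 0 in at least 3 of the 12 libraries and were tested, and 1437 were left out. At the edge of this filter the 3rd highest value was 0.0012 for Vangl1, just inside, and -0.00018 for 2810047C21Rik1, just outside.

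IL4 acts through its receptor and the transcription factor STAT6, and sets macrophages on the course called alternative activation, with arginase, lectins and tissue repair genes. RA, made from vitamin A, enters the nucleus and binds retinoic acid receptors, which sit on DNA together with retinoid X receptors and turn on genes such as those that clear RA. Both signals can act in the same macrophage, and alternatively activated cells can themselves make RA through the enzyme Aldh1a2. Production of RA by the cells was not measured here.

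The joint change is the mean of the IL4 RA libraries minus the mean of the naive vehicle libraries, on the log2 scale. It equals the sum of an average IL4 effect (both IL4 groups minus both naive groups) and an average RA effect (both RA groups minus both vehicle groups). In a balanced design such as this one the errors of the 2 averages are independent under equal variances, although both use the same 12 libraries. The step from IL4 vehicle to IL4 RA and the step from naive vehicle to IL4 vehicle, by contrast, share the IL4 vehicle libraries, whose errors push them in opposite directions. A gene is said to be raised or lowered by both agents, or moved oppositely, only where both averages were called. A gene is said to cancel where it was moved oppositely and its joint change was not called.

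The libraries summed to between 950904 and 980010 CPM in the naive groups and between 1026110 and 1056490 CPM in the IL4 groups, without overlap. The lowest Pearson r between 2 libraries of the same group was 0.993 across tested genes, which are not independent replicates. Of the 7 macrophage markers, all were tested, and Lyz2, Csf1r and Cd68 lay at or above 10.28 log2 CPM in every library. Adgre1, Csf1r, Lyz2, Fcgr1 and Mertk were lower in IL4 RA than in naive vehicle, Itgam was higher (0.18, adjusted p = 0.0095) and Cd68 was not called (0.07). The summed level of the 7 markers went from between 34846 and 37274 CPM to between 21507 and 22973 CPM. The summed level of the T cell markers, 2 of 6 present (Cd4 and Cd247), went from 15.7 to 19.1 CPM down to 4.00 to 4.98 CPM, with Cd4 lower (-2.31) and Cd247 higher (1.00). For the stromal markers, 5 of 6 present, it went from 24.6 to 43.7 CPM down to 12.2 to 27.2 CPM, and for the endothelial markers, 3 of 4 present, from 32.9 to 42.3 CPM down to 21.7 to 25.3 CPM. Higher sums were found for the dendritic cell markers (3 of 6 present, 32.5 to 39.5 CPM against 1672 to 1911 CPM, nearly all Itgax). For the platelet markers (3 of 4 present) it was 26.0 to 32.8 against 41.6 to 58.0 CPM, mostly Pf4. The eosinophil markers Ccr3 and Siglecf (2 of 4 present) summed to 8.46 to 9.68 against 86.0 to 104 CPM. Neutrophil (2 of 8 present), NK cell (1 of 4) and mast cell markers (1 of 6) summed to at most 4.18 CPM in both groups, and the B cell and erythroid markers were not analysed here. What part these cell types had in the results was not tested. In bulk RNA, fewer cells of a type and less RNA per cell cannot be told apart.

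In all, 7245 of the 12116 genes were called in the joint comparison (59.8%), 3753 higher (31.0%) and 3492 lower (28.8%). The average IL4 effect was called for 8395 genes (69.3%) and the average RA effect for 2202 (18.2%, 9.03% higher and 9.14% lower). Both averages were called for 1783 genes, the average IL4 effect alone for 6612, the average RA effect alone for 419, and neither for 3302. Of 1217 genes with a joint change of at least 1, 794 higher and 423 lower, the RA average was the larger of the 2 in size for 49. The 6 largest increases were those of Retnla, Arg1, Chil3, Aldh1a2, Ccl17 and Rnase2a, all of them below 0 log2 CPM in every naive vehicle library; Rnase2a was at the lowest value in all 6 naive libraries, so no fold is given. The 6 largest decreases were those of the lectin gene Cd207 (-4.93, SE 0.14), the prostaglandin-degrading enzyme gene Hpgd (-4.22, SE 0.33), Abcg3 (-3.78), the thrombospondin gene Thbs1 (-3.39), Cd300e (-3.24) and the dicarboxylate transporter gene Slc13a3 (-3.17).

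Among the genes with both averages called, 819 of 12116 moved the same way (6.76%), 455 raised by both (3.76%) and 364 lowered by both (3.00%). Opposite directions were found for 964 (7.96%), 530 raised by IL4 and lowered by RA (4.37%) and 434 lowered by IL4 and raised by RA (3.58%). Of the 964, the joint change followed IL4 in 548, followed RA in 56 and was not called in 360 (2.97% of tested genes). Without naive vehicle library 4 the count of genes moved the same way was 532, that of genes moved oppositely 703 and that of genes that cancel 282. Built instead from single agents, IL4 in vehicle (60.1% of genes called) and RA in naive cells (6.26%), which share the naive vehicle libraries, the counts were 298, 308 and 87. By the steps through IL4 vehicle, the second being RA in IL4 cells (11.7%), they were 350, 771 and 268.

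**Figure D1:**
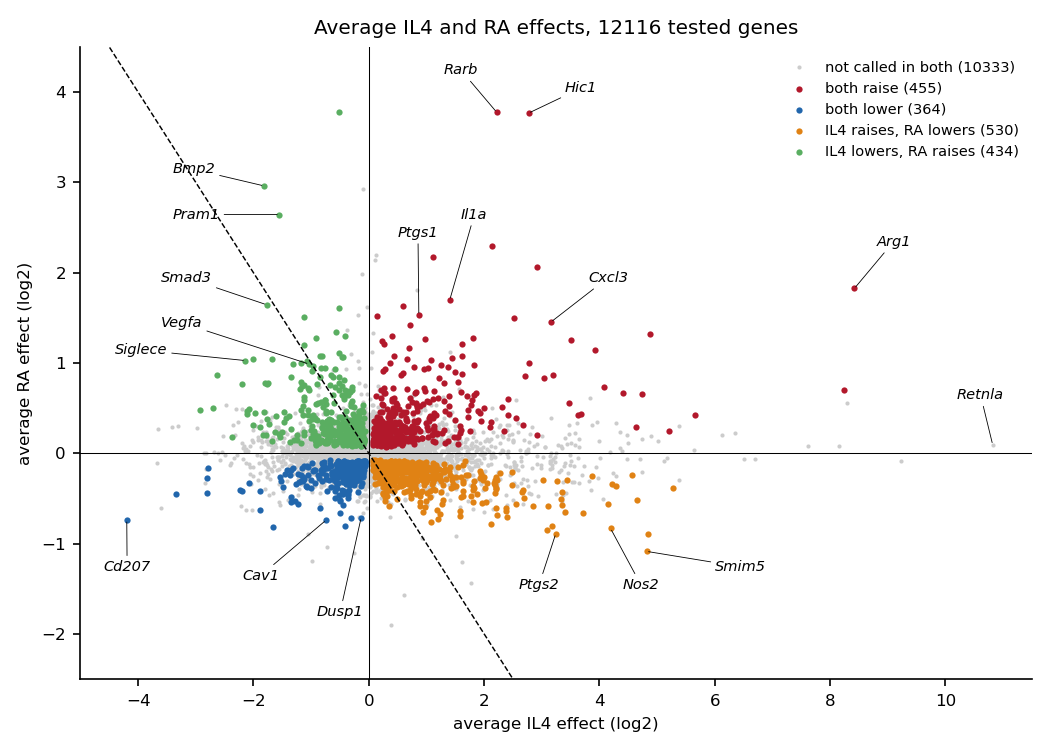
Average RA effect (y axis, log2) against average IL4 effect (x axis, log2) for the 12116 tested genes, coloured by whether both averages were called and in which direction; on the dashed line the 2 effects sum to 0. The 455 genes raised by both lie at the upper right, and Smad3 and Vegfa lie close to the dashed line.

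The genes raised by both agents were led, by the smaller of the 2 averages, by Hic1, Rarb, Arg1, Cxcl3, Il1a, AA467197, Pde1c and Cebpe. Rarb encodes a retinoic acid receptor and is a known direct target of RA, and its promoter window is shown because it held one of the few response elements found. In each window, which runs from 250 bases before to 50 after the annotated start, the capitals mark the motif. The Rarb window (RefSeq, GRCm38.p6, chr14:16575427-16575726, minus strand) held a DR5 element, the direct repeat with a 5-base spacer that binds retinoic acid receptors, at positions -53 to -37 from the start. Dhrs3, a retinaldehyde reductase gene also raised by both (chr4:144892827-144893126, plus strand), held TTCNNNNGAA, the pattern bound by activated STAT proteins. Retnla, which IL4 raised and for which the average RA effect was not called, held the same pattern (chr16:48842359-48842658, plus strand).
Rarb: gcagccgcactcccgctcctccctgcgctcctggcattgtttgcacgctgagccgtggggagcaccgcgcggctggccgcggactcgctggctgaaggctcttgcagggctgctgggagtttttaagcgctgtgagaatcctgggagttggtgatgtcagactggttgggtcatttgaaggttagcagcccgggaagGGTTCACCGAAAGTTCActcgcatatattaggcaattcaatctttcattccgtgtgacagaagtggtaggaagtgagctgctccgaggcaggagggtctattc
Dhrs3: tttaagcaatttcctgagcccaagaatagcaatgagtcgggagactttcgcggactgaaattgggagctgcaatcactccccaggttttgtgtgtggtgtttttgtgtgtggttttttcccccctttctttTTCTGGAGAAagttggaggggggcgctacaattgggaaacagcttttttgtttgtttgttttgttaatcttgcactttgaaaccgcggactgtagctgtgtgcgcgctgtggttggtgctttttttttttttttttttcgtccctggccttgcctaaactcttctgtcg
Retnla: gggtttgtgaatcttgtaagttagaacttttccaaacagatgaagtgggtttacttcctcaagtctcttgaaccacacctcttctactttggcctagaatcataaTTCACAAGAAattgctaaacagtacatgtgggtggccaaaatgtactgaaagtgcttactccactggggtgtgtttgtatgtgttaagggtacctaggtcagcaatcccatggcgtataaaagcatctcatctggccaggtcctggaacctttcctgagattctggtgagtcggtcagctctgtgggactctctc
Both strands were searched. DR5 was found in 4 of 12287 windows of tested genes (0.0326%) and TTCNNNNGAA in 693 (5.64%). Counted by gene, TTCNNNNGAA was in 26 of 361 genes raised by both with a window (7.20%), 19 of 299 lowered by both (6.35%), 26 of 417 raised by IL4 and lowered by RA (6.24%) and 20 of 343 lowered by IL4 and raised by RA (5.83%), against 652 of all 9643 (6.76%). DR5 was in 1 of the 361 genes raised by both and in none of the other 3 classes, against 4 of all 9643 genes (0.0415%).

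Rarb (Entrez 218772, chromosome 14, 16430839 to 17082331, minus strand) stood at -2.89, -2.22 and -2.95 log2 CPM in naive vehicle, at 1.61, 1.50 and 1.15 in naive RA, at -0.29, 0.22 and -0.36 in IL4 vehicle and at 3.15, 3.46 and 3.31 in IL4 RA. Each IL4 RA library lay above all 9 others. The joint change of Rarb was 5.99 (SE 0.23, n = 3 per group, adjusted p = 1.1e-10), the sum of 2.22 for IL4 (SE 0.16) and 3.78 for RA (SE 0.16). Hic1, a transcriptional repressor gene (chromosome 11, 75161377 to 75170255, minus strand), read -2.82, -2.06 and -2.17 in naive vehicle, 0.51, 1.05 and 0.81 in naive RA, -0.01, -0.43 and -0.20 in IL4 vehicle and 4.18, 4.32 and 4.07 in IL4 RA. The joint change of 6.54 (SE 0.22, adjusted p = 3.1e-11) was again made up of a larger RA part (3.77) and a smaller IL4 part (2.77). For both genes the IL4 RA level was reached by neither agent alone, and the naive vehicle values lay close to the lowest in the table, so the folds are inexact.

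Arg1, the arginase of alternative activation (Entrez 11846, chromosome 10, 24915207 to 24927470, minus strand), was the gene of this class with the largest IL4 part. Its values were -2.44, -1.98 and -2.55 in naive vehicle, -0.66, -0.30 and -0.25 in naive RA, 5.99, 6.49 and 6.10 in IL4 vehicle and 7.82, 8.13 and 7.82 in IL4 RA. The joint change was 10.25 (SE 0.17, adjusted p = 6.6e-14), of which IL4 gave 8.42 and RA 1.83; naive vehicle values again lay near the lowest. Il1a, which encodes an interleukin 1 cytokine, stood at 0.64, 1.60 and 1.20 in naive vehicle, 2.60, 2.80 and 2.84 in naive RA, 2.48, 2.67 and 2.21 in IL4 vehicle and 4.33, 4.35 and 4.07 in IL4 RA. Either agent alone brought Il1a to a similar level, and the groups with 1 agent overlapped each other but not the group with both. The joint change was 3.10 (SE 0.19, adjusted p = 1.4e-08), from 1.40 for IL4 and 1.70 for RA. The neutrophil-attracting chemokine gene Cxcl3 had a joint change of 4.62 (SE 0.17) with parts of 3.16 and 1.46, and AA467197 one of 6.20 with parts of 4.88 and 1.32.

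Of the 455 genes raised by both, 347 had every IL4 RA library above all 9 other libraries, against 653 of all 12116 genes (5.39%); this follows in large part from how the class is defined. The median joint change of the class was 0.68, with median parts of 0.41 for IL4 and 0.24 for RA, and for 74 of the 455 both parts reached 0.5. Cebpe, a myeloid transcription factor gene, and the phosphodiesterase gene Pde1c met the definition, but their RA effects differed between naive and IL4 cells, as did that of Ptgs1. For Cebpe neither agent alone gave a called change, IL4 in vehicle 0.61 (adjusted p = 0.0563) and RA in naive cells 0.21 (0.72).

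The genes lowered by both agents had smaller RA effects, none of them reaching 1 in size, against 29 of the 455 raised by both. Cav1 and Cav2, which encode the caveolins that coat plasma membrane invaginations, are neighbours on chromosome 6 (Cav2 17281185 to 17289130, Cav1 17306335 to 17341328, both plus strand) and fell together. Cav1 read 7.01, 6.97 and 7.10 log2 CPM in naive vehicle, 6.48, 6.30 and 6.42 in naive RA, 6.43, 6.38 and 6.39 in IL4 vehicle and 5.46, 5.55 and 5.63 in IL4 RA. The groups given 1 agent lay side by side, and the group given both lay below all others. The joint change was -1.48 (SE 0.06, adjusted p = 9.0e-11), with -0.74 from IL4 and -0.74 from RA. Cav2 stood at 7.35, 7.33 and 7.39 in naive vehicle, 6.83, 6.84 and 6.84 in naive RA, 6.82, 6.79 and 6.98 in IL4 vehicle and 6.32, 6.33 and 6.39 in IL4 RA. For Cav2 the joint change was -1.01 (SE 0.05, adjusted p = 6.6e-10), with parts of -0.49 and -0.52.

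Fos, a subunit of the transcription factor AP-1, stood at 8.76, 8.75 and 8.84 in naive vehicle, 8.29, 8.22 and 8.35 in naive RA, 7.64, 7.39 and 7.60 in IL4 vehicle and 7.10, 6.81 and 7.03 in IL4 RA. The 4 groups did not overlap, and the joint change was -1.80 (SE 0.08, adjusted p = 2.9e-10), mostly the IL4 part (-1.27, with -0.53 for RA). Dusp1, a phosphatase that shuts off MAP kinases, showed the reverse weighting. Its values were 6.04, 6.30 and 6.18 in naive vehicle, 5.38, 5.54 and 5.57 in naive RA, 6.16, 6.09 and 5.98 in IL4 vehicle and 5.24, 5.40 and 5.33 in IL4 RA. The vehicle groups overlapped and both RA groups lay lower, with a joint change of -0.85 (SE 0.07, adjusted p = 3.3e-07) that was -0.71 from RA and -0.13 from IL4. The IL4 part missed the threshold when any 1 of 7 libraries was left out (adjusted p up to 0.0849). Vegfc, a lymphatic growth factor gene, read 3.18, 2.77 and 3.10 in naive vehicle, 2.54, 2.09 and 2.04 in naive RA, 2.79, 2.54 and 2.54 in IL4 vehicle and 2.08, 1.68 and 1.66 in IL4 RA. Its joint change was -1.21 (SE 0.16, adjusted p = 2.2e-05), with parts of -0.41 for IL4 and -0.80 for RA, and its IL4 RA libraries lay below naive vehicle but overlapped naive RA. The other genes named for this class were Cd207 (parts -4.20 and -0.74), Ankrd28 (-0.85 and -0.60), the checkpoint receptor gene Havcr2 (-1.35 and -0.54), the glycosyltransferase gene B3gnt5 (-0.49 and -0.66) and Hmga2-ps1 (-1.35 and -0.48). The last is a pseudogene, so its reads may be shared with its parent gene. The median joint change of the 364 genes was -0.54, both parts reached 0.5 in size for 8, and 209 had every IL4 RA library below all 9 others, against 415 of all genes (3.43%). The count of 209 follows in large part from how the class is defined.

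**Figure D2:**
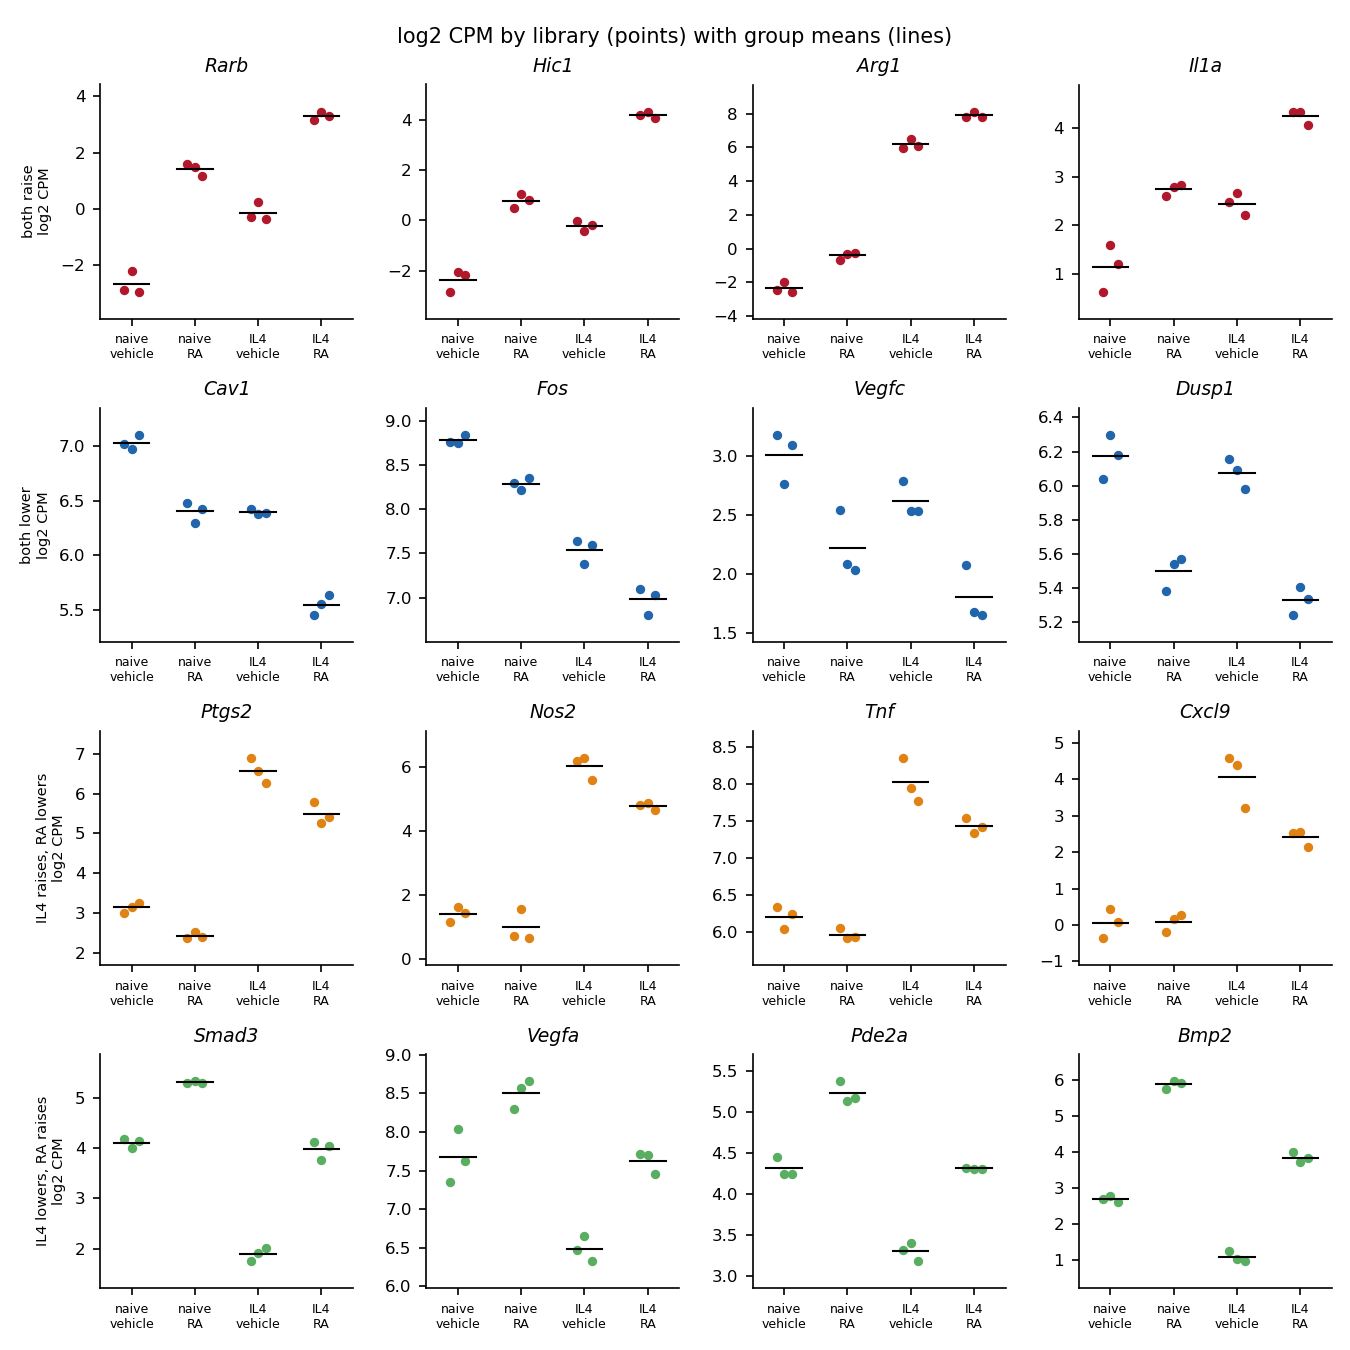
log2 CPM of 16 genes (1 panel each, own y axis) in the 4 groups on the x axis; each point is 1 library and each line a group mean. In the top row the IL4 RA libraries lie above all others, in the next row Cav1 and Fos lie below all others, and in the bottom row the IL4 RA libraries of Smad3, Vegfa and Pde2a return to the level of naive vehicle.

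Genes that IL4 raised and RA lowered were led by Smim5, the cyclooxygenase 2 gene Ptgs2, Hr, Map2, the nitric oxide synthase gene Nos2, the chemokine gene Cxcl9, Gbp4 and Npas4. In all 8 the IL4 part was the larger, and the IL4 RA level remained above naive vehicle. Ptgs2 (chromosome 1, 150100031 to 150108234, plus strand) stood at 3.02, 3.17 and 3.25 log2 CPM in naive vehicle, 2.38, 2.53 and 2.41 in naive RA, 6.89, 6.57 and 6.26 in IL4 vehicle and 5.80, 5.27 and 5.42 in IL4 RA. The RA libraries lay below the vehicle libraries without overlap in naive and in IL4 cells. The joint change was 2.35 (SE 0.15, adjusted p = 1.3e-08), 3.24 from IL4 less 0.89 from RA (RA part -0.89, SE 0.10, adjusted p = 4.7e-05). Nos2, which makes nitric oxide, read 1.17, 1.63 and 1.44 in naive vehicle, 0.74, 1.57 and 0.66 in naive RA, 6.19, 6.27 and 5.58 in IL4 vehicle and 4.80, 4.87 and 4.65 in IL4 RA. The naive groups overlapped, and the IL4 groups did not. The joint change of Nos2 was 3.36 (SE 0.22, adjusted p = 2.9e-08), with parts of 4.19 and -0.83.

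Tnf, the tumour necrosis factor gene, stood at 6.33, 6.04 and 6.24 in naive vehicle, 6.04, 5.91 and 5.92 in naive RA, 8.35, 7.94 and 7.77 in IL4 vehicle and 7.54, 7.34 and 7.42 in IL4 RA. The IL4 groups lay above both naive groups and did not overlap each other. Its joint change was 1.23 (SE 0.12, adjusted p = 1.1e-06), with parts of 1.64 and -0.41. Cxcl9, an interferon-gamma-inducible chemokine gene, read -0.36, 0.45 and 0.07 in naive vehicle, -0.18, 0.16 and 0.26 in naive RA, 4.59, 4.39 and 3.22 in IL4 vehicle and 2.54, 2.57 and 2.15 in IL4 RA. IL4 vehicle library 4 was the lowest of its group for Cxcl9. The RA effect on Cxcl9 was -1.65 in IL4 cells (adjusted p = 0.0031) and 0.03 in naive cells, where it was not called. The interaction was not called. The RA part of Cxcl9 (-0.81, adjusted p = 0.019) missed the threshold without IL4 vehicle library 3 (adjusted p = 0.0517) or IL4 RA library 4 (0.0504). That of the guanylate-binding protein gene Gbp4 (-0.78, adjusted p = 0.037) did so without any 1 of 9 libraries (adjusted p = 0.0571 to 0.0891) and with robust moderation (0.106). The joint changes of both remained called, at 2.37 for Cxcl9 and 1.33 for Gbp4. For Hr, a nuclear corepressor gene, the parts were 4.85 and -0.89, for the microtubule protein gene Map2 3.09 and -0.85, for the transcription factor gene Npas4 2.40 and -0.70, and for Smim5 4.82 and -1.09; naive values of Hr and Smim5 lay low, so these folds are inexact. Over the 530 genes the median IL4 part was 0.50 and the median RA part -0.20. The joint change was called higher in 344, lower in 9, and not called in 177.

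Of the genes that IL4 lowered and RA raised, 19 of 434 had an RA part of at least 1 in size, against 1 of the 530 moved the other way. Bmp2, a bone morphogenetic protein ligand gene (chromosome 2, 133552159 to 133562896, plus strand), stood at 2.70, 2.79 and 2.63 log2 CPM in naive vehicle, 5.75, 5.96 and 5.91 in naive RA, 1.26, 1.04 and 0.97 in IL4 vehicle and 4.00, 3.72 and 3.82 in IL4 RA. The 4 groups did not overlap, and IL4 RA lay between naive vehicle and naive RA. The joint change of Bmp2 was 1.14 (SE 0.10, adjusted p = 2.7e-07), RA giving 2.96 and IL4 -1.82. Pram1, an adaptor protein gene of myeloid cells, behaved likewise: it read 2.68, 2.58 and 2.56 in naive vehicle, 5.09, 5.15 and 4.99 in naive RA, 0.77, 1.00 and 0.86 in IL4 vehicle and 3.78, 3.77 and 3.54 in IL4 RA. The joint change of Pram1 was 1.09 (SE 0.09, adjusted p = 1.6e-07), with parts of 2.64 for RA and -1.55 for IL4.

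In other members IL4 outweighed RA. Siglece, an inhibitory sialic acid receptor gene, stood at 6.34, 6.17 and 6.35 in naive vehicle, 6.81, 6.75 and 6.82 in naive RA, 3.91, 3.59 and 3.37 in IL4 vehicle and 5.39, 5.08 and 5.05 in IL4 RA. The 4 groups did not overlap, and IL4 RA lay between IL4 vehicle and naive vehicle. Its joint change was -1.11 (SE 0.12, adjusted p = 2.3e-06), with parts of -2.14 for IL4 and 1.03 for RA. The RA effect on Siglece was 0.51 in naive cells and 1.55 in IL4 cells, and the interaction was called (adjusted p = 0.0182). The adhesion receptor gene Adgre4 had a joint change of -0.63 (parts -1.67 and 1.05) and the scavenger receptor gene Marco one of -1.03 (-1.81 and 0.78). Ifitm6 had one of -0.96 (-2.01 and 1.05), which without naive vehicle library 3 was -0.61 and not called (adjusted p = 0.0885); it was not called without IL4 RA library 2 either (0.0585). Over the 434 genes the median IL4 part was -0.43 and the median RA part 0.24; the joint change was called lower in 204, higher in 47 and not called in 183.

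In the 360 genes that cancel, 183 lowered by IL4 and 177 raised by it, the joint change was not called although both averages were called. A missed threshold does not show equality: the 95% interval of the joint change lay within 0.5 of 0 for 324 of the 360. Both parts reached 0.5 for 35 of them, 29 of these lowered by IL4 and 6 raised by it, and for 12 of the 35 the interval also lay within 0.5. Smad3, the signal transducer of TGF-beta (chromosome 9, 63646766 to 63757994, minus strand), had the largest pair of opposed effects. It stood at 4.17, 4.00 and 4.15 log2 CPM in naive vehicle, 5.31, 5.33 and 5.30 in naive RA, 1.75, 1.92 and 2.01 in IL4 vehicle and 4.13, 3.77 and 4.04 in IL4 RA. The IL4 RA libraries overlapped naive vehicle, while naive RA lay above and IL4 vehicle below. The parts were -1.77 for IL4 and 1.65 for RA, and the joint change was -0.13 (95% interval -0.33 to 0.07, adjusted p = 0.25). The RA effect on Smad3 was 1.20 in naive cells and 2.09 in IL4 cells, and the interaction was called (adjusted p = 0.0109). The IL4 effect was -2.22 in vehicle and -1.33 with RA. Each part is therefore a mean over settings that differed.

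Vegfa, the main vascular endothelial growth factor gene (chromosome 17, 46016993 to 46032377, minus strand), read 7.35, 8.03 and 7.63 in naive vehicle, 8.29, 8.58 and 8.66 in naive RA, 6.47, 6.65 and 6.32 in IL4 vehicle and 7.71, 7.70 and 7.45 in IL4 RA. All 3 IL4 RA libraries lay within the range of naive vehicle, which was wide. Parts of -1.04 and 0.99 left a joint change of -0.05 (95% interval -0.37 to 0.27, adjusted p = 0.78). Pde2a, a phosphodiesterase that breaks down cyclic AMP and cyclic GMP, read 4.45, 4.24 and 4.24 in naive vehicle, 5.37, 5.13 and 5.16 in naive RA, 3.31, 3.40 and 3.18 in IL4 vehicle and 4.32, 4.31 and 4.30 in IL4 RA. The IL4 RA libraries of Pde2a fell within the range of naive vehicle, and the 95% interval of the joint change was -0.17 to 0.17 (adjusted p = 0.99) with parts of -0.96 and 0.96.

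Tgm2, the tissue transglutaminase gene, stood at 9.37, 9.49 and 9.38 in naive vehicle, 10.09, 10.15 and 10.24 in naive RA, 8.46, 8.40 and 8.30 in IL4 vehicle and 9.68, 9.49 and 9.45 in IL4 RA. The IL4 RA libraries overlapped naive vehicle and lay apart from the other 2 groups. Its joint change was 0.12 (95% interval -0.02 to 0.26, adjusted p = 0.12), and -0.10 after quantile normalization (adjusted p = 0.19), with parts of -0.82 and 0.95. The basement membrane collagen gene Col4a2 had parts of -1.07 and 1.03 and a joint interval of -0.36 to 0.27; the stromal markers Col1a1 and Col3a1 were lower in IL4 RA (-0.83 and -0.86), and their part in this result was not tested. Pilrb1, an activating receptor gene with close relatives in the genome, had parts of -1.18 and 1.00 and an interval of -0.38 to 0.01. Its joint change was called after median centring (adjusted p = 0.0413), after quantile normalization (0.0430), without naive vehicle library 2 (-0.27, 0.0255) and in the 6 compared libraries alone (0.0475), so whether it cancels depended on the processing. The interval of the ectoenzyme gene Cd38, from -0.75 to 0.10, was wide, and without naive vehicle library 2 its joint change of -0.58 was called (adjusted p = 0.00879). Among cancelling genes raised by IL4 the effects were smaller. Dusp2, a MAP kinase phosphatase gene, read 3.00, 3.20 and 3.25 in naive vehicle, 2.79, 2.73 and 2.72 in naive RA, 3.82, 3.54 and 3.46 in IL4 vehicle and 3.05, 3.38 and 3.11 in IL4 RA. The IL4 RA libraries overlapped naive vehicle only. Parts of 0.44 and -0.42 left 0.03 (95% interval -0.21 to 0.26). The olfactory receptor family gene Olfr111 (0.74 and -0.50), Ahi1 (0.73 and -0.47), Arhgap26 (0.67 and -0.42), Creb5 (0.48 and -0.37) and Mamld1 (0.55 and -0.36) were the others named. For Arhgap26 and Creb5 every IL4 RA library lay above every naive vehicle library. Their joint intervals were -0.0013 to 0.50 and -0.03 to 0.26. The joint change of Olfr111 went from 0.24 to 0.38 and was called without naive vehicle library 4 (adjusted p = 0.00927). That of Ahi1 went from 0.26 to 0.44 and was called without IL4 RA library 4 (0.00081).

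**Figure D3:**
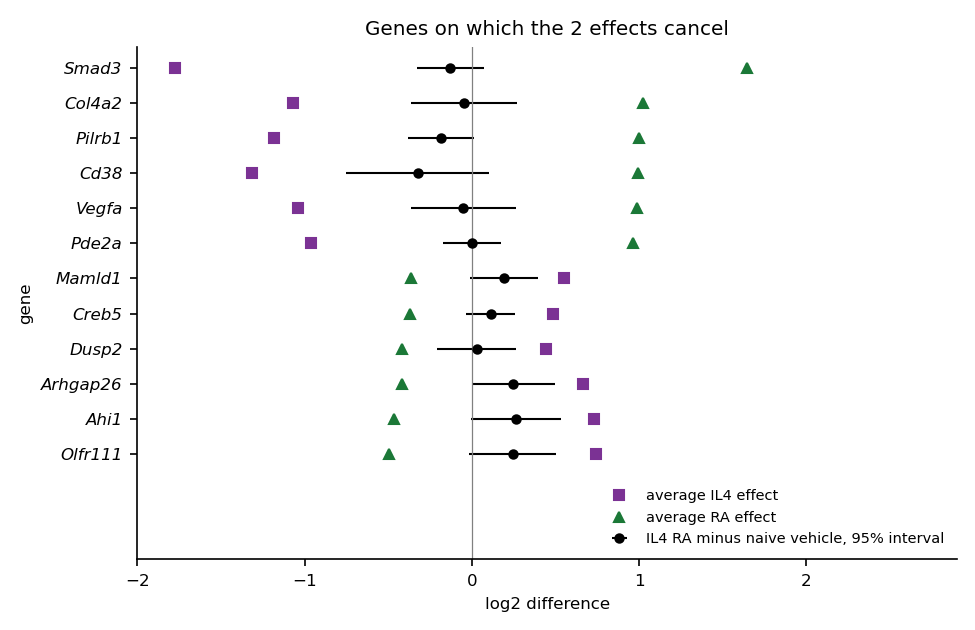
Average IL4 effect (squares), average RA effect (triangles) and joint change with its 95% interval (circles and bars), all as log2 differences on the x axis, for the 12 cancelling genes named by the rule (y axis). Every joint interval includes 0, while the squares and triangles lie on opposite sides, at -1.77 and 1.65 for Smad3 and at 0.44 and -0.42 for Dusp2.

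In the main fit the cholesterol transporter genes did not meet either definition. Abca1 read 8.20, 8.24 and 8.16 in naive vehicle and 8.67, 8.39 and 8.42 in IL4 RA, a joint change of 0.29 (SE 0.07, adjusted p = 0.0021) that came from RA (0.35) and was not called after quantile normalization (0.15, adjusted p = 0.0713). Quantile normalization also gave Abca1 a called IL4 part (-0.20, adjusted p = 0.0021), so whether it cancels depended on the processing. Without IL4 RA library 2 the IL4 part was called as well (-0.10, adjusted p = 0.0166). Abcg1 had a 95% interval of -0.17 to 0.17 for its joint change, with an IL4 part of 0.16 (adjusted p = 0.025) and an RA part of -0.16 (adjusted p = 0.070), so it was 1 call short of the cancelling class. The IL4 part missed the threshold without any 1 of 7 libraries (adjusted p = 0.0521 to 0.0612). The RA part of Abcg1 was called without IL4 vehicle library 2 (-0.19, adjusted p = 0.0357) and after median centring (-0.17, 0.0465). After median centring its IL4 part was not called (0.0524).

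Described by pathway, the retinoic acid targets had 6 of 12 tested members raised by both (3.76% of all genes) and 3 lowered by IL4 and raised by RA (3.58%). Those raised by both were Hic1, Rarb, Cebpe, Dhrs3, the corepressor gene Nrip1 (parts 0.29 and 0.93) and the receptor gene Rarg (0.79 and 0.15), and the 3 others were Cd38, Tgm2 and Asb2 (-1.76 and 0.76). For Cebpe and Nrip1 the RA effect differed between naive and IL4 cells, and for Cebpe neither agent alone gave a called change. The median joint change of the list was 1.03 against 0.001 over all tested genes. In the alternative activation list 28 of 31 members were higher jointly (31.0% of all genes) and 0 lower. RA added to IL4 in 5 of them, Arg1, Ptgs1, the cytokine signal suppressor gene Socs2 (3.20 and 0.87), Batf3 (2.56 and 0.39) and the beta-glucan receptor gene Clec7a (1.94 and 0.35). RA took from IL4 in 5, the VEGF receptor gene Flt1 (5.27 and -0.39), Itgb3 (2.01 and -0.38), Klf4 (0.83 and -0.30), Egr2 (4.56 and -0.24) and Tfec (1.07 and -0.19). Over all tested genes 3.76% were raised by both and 4.37% raised by IL4 and lowered by RA. The RA parts of Batf3, Itgb3 and Flt1 were lost as calls without single libraries, with adjusted p up to 0.100, 0.0787 and 0.0534 respectively. That of Rarg was lost when any 1 of 5 libraries was left out (adjusted p up to 0.0815).

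Classical inflammation genes divided. Of 31 tested members 9 were raised by both agents (3.76% of all genes), among them the chemokine genes Cxcl3, Cxcl2 (1.59 and 0.68), Cxcl1 (0.96 and 0.73), Ccl2 (2.42 and 0.60) and Ccl7 (2.01 and 0.50). In 6 RA opposed IL4 (4.37%), namely Ptgs2, Nos2, Cxcl9, Tnf, the costimulatory receptor gene Cd40 (3.25 and -0.30) and the adhesion molecule gene Icam1 (0.85 and -0.20). Jointly 23 of the 31 were higher and 5 lower (31.0% and 28.8% of all genes), with a median of 1.42. The chemokine and receptor list, which shares some of these genes, had 10 of 30 members raised by both, including Cxcl14 (1.11 and 2.18), Ccl6 (1.02 and 0.58) and the receptor gene Ccr1 (3.63 and 0.43), 1 in each opposed class and 0 lowered by both (3.00%). In the eicosanoid list of 19 the cyclooxygenase genes parted: Ptgs1, for the constitutive enzyme, was raised by both (0.87 and 1.53), and Ptgs2 was raised by IL4 and lowered by RA. Thromboxane synthase (Tbxas1, 1.31 and 0.58) and leukotriene C4 synthase (Ltc4s, 1.33 and 0.47) rose with both, while the prostaglandin receptor gene Ptger3 (0.88 and -0.54) cancelled, with a joint interval of -0.03 to 0.72. Of 40 interferon-stimulated genes 34 were raised on average by IL4 (34.6% of all genes), 3 were lowered by RA (Gbp4, Gbp5 and Gbp7; 9.14% of all genes) and 0 raised; with robust moderation the RA part of Gbp7 was not called (adjusted p = 0.0613). The median parts of that list were 1.01 and -0.19. For Gbp4, Gbp5 and Gbp7 the RA effect was called in IL4 cells (-1.53, -0.67 and -0.72). In naive cells it was not called (-0.03, -0.11 and -0.22), and the interaction was not called for any of them. Some smaller RA parts missed the threshold when 1 library was left out, for Ccl7 with any of 9 (adjusted p up to 0.0894), for Cd40 with any of 6 (up to 0.0689) and for Ccr1 with naive vehicle library 4 or IL4 RA library 3 (up to 0.0578). Fitted with no intensity trend, the joint change of Ptger3 was called (adjusted p = 0.0324).

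Of the 21 immediate early genes, which respond to stimulation within minutes, 5 were lowered by both (3.00% of all genes): Fos, Nr4a1 (-2.23 and -0.41), Btg2 (-0.59 and -0.21), Zfp36 (-0.30 and -0.19) and Dusp1. A further 5 were raised by IL4 and lowered by RA, among them Dusp2, which cancelled, and Atf3 (1.31 and -0.21), and Ier3 went the other way (-0.31 and 0.52). RA lowered 10 of the 21 on average and raised 1 (9.14% and 9.03% of all genes). Of 20 macrophage identity genes 7 were lowered by IL4 and raised by RA (3.58%), including the transcription factor gene Maf (-1.83 and 0.20), the phagocytic receptor gene Mertk (-1.13 and 0.23) and the fractalkine receptor gene Cx3cr1 (-1.12 and 0.20). The list had median parts of -0.43 for IL4 and 0.10 for RA and a joint median of -0.24. Efferocytosis genes, which serve the uptake of dead cells, fell into all 4 classes: 3 of 25 raised by both (Timd4, 1.62 and 1.08; Stab2, 0.83 and 0.68; Itgb5), 2 lowered by both (Havcr2 and Itgav), 3 raised by IL4 and lowered by RA (Itgb3, Anxa1 and Msr1) and 5 lowered by IL4 and raised by RA (Tgm2, Marco, Stab1, Mertk and C1qc). Over all tested genes these 4 classes held 3.76%, 3.00%, 4.37% and 3.58%. The joint median of the efferocytosis list was 0.10. With 1 library left out, the RA part of Btg2 was lost for any of 10 libraries (adjusted p up to 0.111), that of Maf for any of 8 (up to 0.0976) and that of Itgav for naive vehicle library 4 (0.0508). The IL4 part of C1qc was lost for any of 10 libraries (up to 0.13), and that of Itgb5 after quantile normalization (0.0813).

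In the TGF-beta and BMP list the ligand Bmp2 and the transducer Smad3 were lowered by IL4 and raised by RA, as was the receptor gene Tgfbr2 (-0.98 and 0.21). The other receptor gene Tgfbr1 was lowered by both (-0.41 and -0.30). The secreted target gene Tgfbi was raised by IL4 and lowered by RA (0.95 and -0.35). In all, 3 of 25 members were lowered by IL4 and raised by RA, 4 the other way, 2 lowered by both and 0 raised by both, against 3.58%, 4.37%, 3.00% and 3.76% of all genes. Among 13 growth factor genes Vegfa and Hgf cancelled (2.97% of all genes), and Vegfc was lowered by both. Without IL4 RA library 4 the joint change of Hgf went from -0.11 to -0.21 and was called (adjusted p = 0.0120). Igfbp4, which binds insulin-like growth factors, was lowered by IL4 and raised by RA (-2.93 and 0.48). Igf1 (0.48 and -0.25) and Flt1 went the other way.

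The remaining lists had 6 or fewer members with both averages called. Over all tested genes 3.76% were raised by both and 3.00% lowered by both. A further 4.37% were raised by IL4 and lowered by RA, and 3.58% went the other way. Glycolysis and hypoxia had 3 of 24 raised by both, the hexokinase gene Hk2 (0.34 and 0.35), Gpi1 (0.72 and 0.15) and Ldha (0.69 and 0.14). The RA part of Ldha was lost without any 1 of 9 libraries (adjusted p up to 0.109). That of Gpi1 was lost without any 1 of 3 (up to 0.0547). In the same list Vegfa and Hif1a (-0.50 and 0.29) were lowered by IL4 and raised by RA, with Pfkp the other way. In the matrix and protease list (21 tested) the gelatinase gene Mmp9 (3.03 and 0.83) was raised by both, Sdc4 lowered by both, Plau and Plaur raised by IL4 and lowered by RA, and Col4a2 cancelled. Retinoid handling (10 tested) had Aldh1a2, the RA-making enzyme gene, raised by both (8.23 and 0.71, from naive vehicle values near the lowest) and Dhrs9 raised by IL4 and lowered by RA (2.21 and -0.26). Cholesterol synthesis genes were higher jointly in 23 of 24 and lower in 0 (31.0% and 28.8% of all genes), with Insig1 (0.37 and 0.35) and Sc5d (0.74 and 0.24) raised by both. Of 12 cholesterol efflux genes Apoc2 (-2.21 and 0.77) and Apoe (-1.62 and 0.24) were lowered by IL4 and raised by RA. Of 18 lipid storage and oxidation genes 3 were lowered by IL4 and raised by RA, including the lipid droplet coat gene Plin2 (-0.49 and 0.14), and 1 was raised by both. MHC class II genes were higher jointly in 13 of 13 (31.0% of all genes), with RA called in 1 of them (18.2%). That RA part, of Ifi30, was lost without any 1 of 8 libraries (adjusted p up to 0.0972). In the fusion and osteoclast list (10 tested) the acid phosphatase gene Acp5 was raised by both (0.96 and 0.94), and the fusion gene Dcstamp was raised by IL4 and lowered by RA (4.28 and -0.37). Of 28 cell cycle genes Ccnd2 (1.89 and 0.47) and 1 other were raised by both, and the cell cycle inhibitor gene Cdkn1a (1.47 and -0.33) and Ccnd3 (0.70 and -0.27) raised by IL4 and lowered by RA. Joint medians of these lists ran from -0.05 for retinoid handling to 1.61 for the fusion and osteoclast list.

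**Figure D4:**
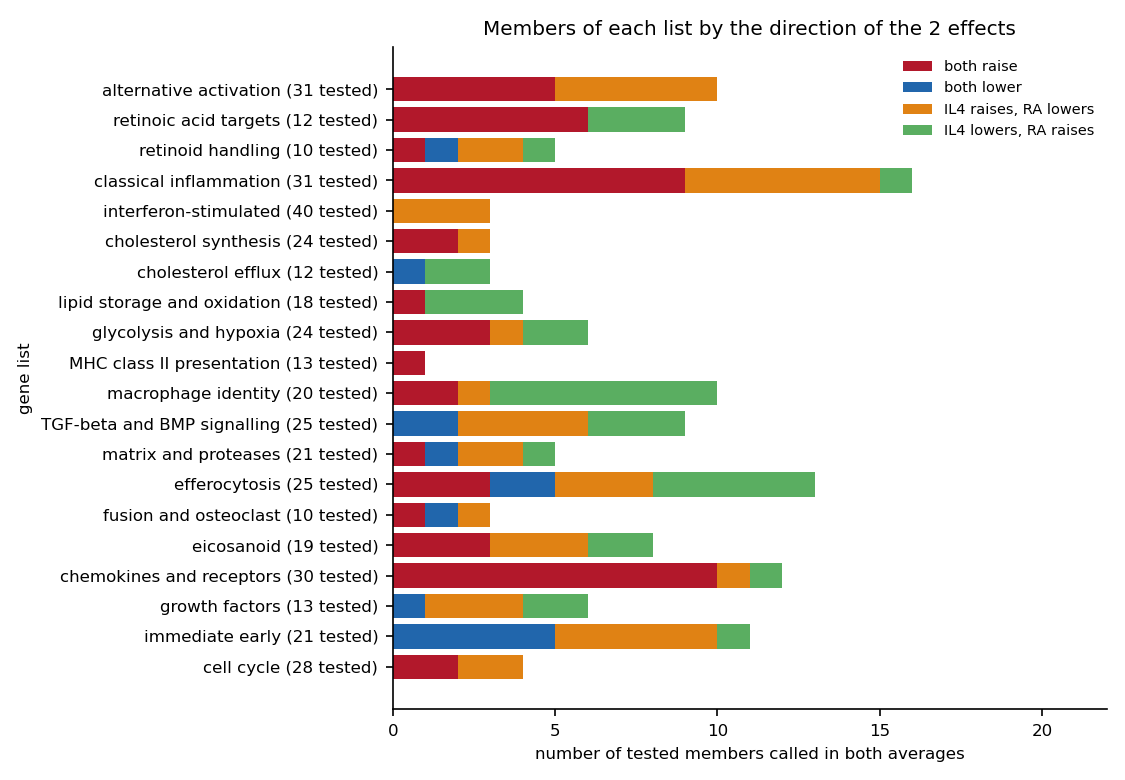
Number of tested members (x axis) of each gene list (y axis) with both averages called, by the directions of the 2 effects. Classical inflammation, with 16 such members, and efferocytosis, with 13, have the most; chemokines and receptors have 10 raised by both.

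Whether the joint change equalled the sum of what each agent did alone was tested by the interaction. It was called for 46 of 12116 genes (0.380%), 41 with a joint change above the sum (0.338%) and 5 below it (0.0413%). Of the 46, 17 were among the genes raised by both, 0 among those lowered by both, 2 among those raised by IL4 and lowered by RA, 16 among those lowered by IL4 and raised by RA, and 11 outside these classes. For the other genes a missed threshold does not show that the effects simply add.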

How the data were processed

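Polyadenylated RNA of 12 macrophage libraries was measured by sequencing. The deposited values are log2 CPM, that is, counts scaled to library size, corrected by the authors with TMM factors, per the file headers and values; a prior count had been added, so a common lowest value of -3.67 stands for no reads. Per the submitters' processing notes, bcl2fastq 2.20, Salmon 0.13.1, edgeR 3.32.1 and build GRCm38 were used. Read counts and depth were not given, and low values did not fall on whole-read steps, so precision rests on the spread between replicates.

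Genes with log2 CPM of at least 0 in at least 3 of the 12 libraries were tested in 1 limma 3.58.1 model (R 4.3.3) with 4 group means and an intensity trend. Two-sided p-values were Benjamini-Hochberg adjusted across the tested genes of each comparison, and an adjusted p under 0.05 was called. Nothing in the labels says whether replicates came from separate animals or cultures, so each p-value reflects only how far these libraries spread, which may be technical. The model was tested on simulated data. The genes and lists were chosen with earlier results of these data known. Named genes are, among those reaching 4 CPM in 1 group, the 6 largest joint changes each way, the 8 genes of each direction class and the 6 cancelling genes each way with the largest smaller effect, up to 6 such members per list, and Arg1, Rarb, Abca1 and Abcg1. Predicted genes were left out of the names. Other list members in the pathway descriptions, a gene at the threshold and the cell type markers were chosen after their values were seen; the alternatives were also run on the 36 list members outside the rule with both averages called. Alternatives were other filters, log2(CPM + 1), median centring, quantile normalization, other moderation, a replicate block, left-out libraries, the 6 compared libraries alone, and other pairs of effects. Positions and promoters are RefSeq's (GRCm38.p6), in which 12041 of the 12116 tested genes were found by Entrez ID, and strands are GENCODE vM21's.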

Additional observations from a re-analysis of the deposited data

Results flagged for a closer look

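The RA effect differed between IL4 cells and naive cells for 6 of the named genes, by the interaction term of the limma fit adjusted over all tested genes. For Cebpe the RA effect was 0.21 in naive cells and 2.22 in IL4 cells, a difference of 2.01 (SE 0.36, adjusted p = 0.0325). For Nrip1 it was 0.62 and 1.25, a difference of 0.63 (SE 0.11, adjusted p = 0.0289). For Pde1c it was 2.00 and 0.51, a difference of -1.49 (SE 0.28, adjusted p = 0.0368). For Ptgs1 it was 1.79 and 1.28, a difference of -0.52 (SE 0.08, adjusted p = 0.0190). For Siglece it was 0.51 and 1.55, a difference of 1.04 (SE 0.16, adjusted p = 0.0182). For Smad3 it was 1.20 and 2.09, a difference of 0.88 (SE 0.13, adjusted p = 0.0109). In all 6 genes RA raised the mean in both settings. The RA effect was however not called for Cebpe in naive cells (adjusted p = 0.72) or for Pde1c in IL4 cells (adjusted p = 0.12). Groups held 3 libraries, too few for a check of single libraries that stand apart.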

How the results depend on the processing

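The main counts were 7245 genes in the joint comparison, 819 moved the same way, 964 moved oppositely and 360 that cancel. Single agents against naive vehicle gave 298, 308 and 87 for the last 3, the steps through IL4 vehicle gave 350 moved the same way, and both averages of at least 0.5 in size gave 82, 95 and 35. Over the 12 left-out libraries the ranges were 6518 to 7290 joint calls, 8070 to 8385 for the average IL4 effect, 1511 to 2479 for the average RA effect, 532 to 987 moved the same way, 703 to 998 moved oppositely and 282 to 403 that cancel; all but the IL4 count were lowest without naive vehicle library 4. The 6 compared libraries alone gave 6891 joint calls.

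Of 9620 results of single genes under all alternatives, 9279 kept their direction and their side of the threshold, 272 lost the call, 36 gained it and 33 changed sign. Centring on the median turned the joint change of Dusp2 to -0.0121, of Pde2a to -0.0394, of Rdh11 to -0.0393 and of Lamp1 to -0.0106. Quantile normalization turned that of Dusp2 to -0.0159, Pde2a to -0.0246, Tgm2 to -0.0971, Rdh11 to -0.0355, Lipa to -0.0316, Id2 to -0.0498, Igf1 to -0.0116, Lamp1 to -0.323 and C1qc to -0.275 (the last 2 called, adjusted p = 4.47e-05 and 0.00130), and the average IL4 effect of Lipa to -0.20 (adjusted p = 0.000418). With log2(CPM + 1) the average RA effect of Chil3 was 0.00490. Over left-out libraries the joint change ranged from -0.140 to 0.00808 for Col4a2, -0.0720 to 0.0928 for Dusp2, -0.21 to 0.13 for Vegfa, -0.0348 to 0.0727 for Pde2a, -0.0310 to 0.0256 for Rdh11, -0.0145 to 0.0959 for Id2 and -0.0472 to 0.0611 for Abcg1. The average RA effect ranged from -0.0417 to 0.262 for Retnla, -0.256 to 0.155 for Chil3 and -0.0163 to 0.164 for Rnase2a. None of these was called in any of the 12. The share of joint calls that were higher was 51.8%, against 45.3% after median centring and 42.2% after quantile normalization. The cause of these shifts was not tested.

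The labels' replicate numbers were not taken to pair the samples, because the labels tie no number to an animal or batch and same-numbered libraries did not all deviate together by more than 0.1. Their deviations from the group means correlated at 0.0102 to 0.510 in 18 pairs, all above 0 and 14 above 0.1, and 9 of the 12 libraries correlated best with their own number in every other group, which is a hint of pairing from the data. A replicate block gave 7500 joint calls, 8586 for IL4, 2475 for RA, 940 moved the same way, 1104 moved oppositely and 387 that cancel; it ended no call of a named gene, and Pilrb1, Olfr111 and Arhgap26 then had a called joint change (adjusted p = 0.0498, 0.0329 and 0.0204), and Ccl17, Hpgd, Slc13a3 and Abcg1 a called average RA effect (0.0418, 0.0290, 0.0209 and 0.00386). Depth is unknown, so genes near the lowest value have inexact folds.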
